A study of Mus musculus with 18 samples.

Results

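The 36 genes described here encode the cargo, membrane proteins and release machinery of the regulated secretory granule, and they were followed in pancreatic islets, where the hormone-secreting cells lie. They were chosen by symbol from a fixed list of granins, granule membrane proteins, synaptotagmins, SNAREs, Rab3 and Rab27 GTPases with their effectors, priming factors, and tethering and transport proteins. The list was made with earlier results of these data known, so its shares beside all genes describe it and test nothing. All 36 symbols were present among the 24346 gene symbols in each table. The 18 libraries, 3 a group, were made from isolated islets of mice on a C57BL/6 background. The 6 groups were Cdh13 exon2 deleted islets at 8 weeks of age on chow, floxed islets at 8 weeks on chow, deleted islets at 14 weeks on chow, floxed islets at 14 weeks on chow, deleted islets at 14 weeks after 6 weeks of high-fat diet, and floxed islets at 14 weeks after 6 weeks of high-fat diet. Deleted mice lacked exon 2 of Cdh13, the gene for the adiponectin-binding surface protein T-cadherin, and floxed mice carried that exon between loxP sites. How the exon was removed, in which cells, and whether a group's libraries came from separate mice is not stated in the labels, so p-values measure the spread between these libraries only.

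Insulin, glucagon and somatostatin are stored in dense-core granules whose matrix is built with the help of granins. A granule is carried to the cell edge by motors, held there by Rab GTPases, their effectors and the exocyst, and made ready for release by priming factors. Calcium then acts through synaptotagmins on the SNAREs, proteins of the granule (VAMPs) and of the plasma membrane (syntaxins and SNAP proteins) that zip together and fuse the membranes. Islet endocrine cells use much of the same machinery as neurons, and mutations or loss of several of these genes impair insulin release in mice.

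Values are gene-level FPKM, fragments per kilobase of transcript, so that levels of different genes are compared per length. How the libraries were scaled to each other is not stated. Their median ratios were 1.004 to 1.008, so the values were already near level between libraries at the median gene, and not at an equal sum. Summed FPKM ranged from 903346 to 1394010 per library, 11474 to 11787 genes reached 1 FPKM in each library, and the insulin gene Ins2 held 40.2% to 52.7% of the sum. Read totals are unknown, and the relative value of a single fragment spanned an estimated 1.38 times. Cdh13 ranged from 0.247 to 0.809 FPKM over the 9 deleted libraries and from 1.08 to 2.06 FPKM over the 9 floxed libraries, a gene-level value that does not separate exon 2. Markers of beta, alpha, delta and PP cells were present in every group. In bulk islets, fewer cells of a type and less RNA per cell cannot be told apart.

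Promoter stretches are shown for the 4 classical granins, because 3 of them were called higher together on the high-fat diet in floxed islets, a direction that turned round for Chga and Scg2 under quantile normalization, and for Sytl4 and Rab3b, the genes with the most stable genotype difference. They run from 150 bases to 1 base before the start in the RefSeq promoter table (build GRCm38.p6), 5′ to 3′ on the gene's strand; for Scg3 and Sytl4 that start lies inside the annotated gene. The stretches lie at chr12:102554791-102554940 (plus strand) for Chga, chr2:132781492-132781641 (plus) for Chgb, chr1:79440027-79440176 (minus) for Scg2, chr9:75684057-75684206 (minus) for Scg3, chrX:133981813-133981962 (minus) for Sytl4 and chr4:108878920-108879069 (plus) for Rab3b. Capitals mark TGACGTCA, the cAMP response element, or its first 5 letters where the whole is not present, and TATAAA, the letters of a TATA box. The Sytl4 stretch holds none of these.
Chga: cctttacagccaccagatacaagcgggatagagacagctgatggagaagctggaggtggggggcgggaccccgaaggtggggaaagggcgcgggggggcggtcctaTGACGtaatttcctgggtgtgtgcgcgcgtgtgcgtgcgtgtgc
Chgb: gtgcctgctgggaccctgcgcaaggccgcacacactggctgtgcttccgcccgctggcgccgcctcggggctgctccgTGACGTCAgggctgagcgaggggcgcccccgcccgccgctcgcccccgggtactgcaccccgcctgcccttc
Scg2: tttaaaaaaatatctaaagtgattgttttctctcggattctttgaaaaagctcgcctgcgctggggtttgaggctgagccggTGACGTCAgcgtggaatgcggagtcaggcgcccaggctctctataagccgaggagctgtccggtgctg
Scg3: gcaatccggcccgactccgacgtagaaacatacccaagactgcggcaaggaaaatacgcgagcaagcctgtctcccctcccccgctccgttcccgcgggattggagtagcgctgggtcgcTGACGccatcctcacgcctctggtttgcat
Sytl4: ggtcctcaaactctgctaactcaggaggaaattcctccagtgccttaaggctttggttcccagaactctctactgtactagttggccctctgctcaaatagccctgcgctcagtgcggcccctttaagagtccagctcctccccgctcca
Rab3b: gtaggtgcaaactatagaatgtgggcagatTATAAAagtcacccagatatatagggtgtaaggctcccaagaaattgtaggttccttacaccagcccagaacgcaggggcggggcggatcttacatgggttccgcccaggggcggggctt

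The table matched 25 of the 36 genes (not Vgf, Syt4, Syt5, Syt7, Syt13, Vamp2, Vamp3, Snap25, Rab37, Rims2 and Doc2b). Windows of 250 bases before to 50 bases after the start were searched on both strands. TGACGTCA stood in 1.79% of all 32851 promoters and in 3 of the 25 genes, at -72 to -65 in Chgb, -68 to -61 in Scg2 and -108 to -101 in Stxbp3. TGACG, which every TGACGTCA contains, stood in 20.8% of all promoters and in 15 of the 25 genes, among them Chga at -44 to -40 and Scg3 at -30 to -26. TTCAGCACC, the left part of the element bound by the neuronal gene repressor REST, stood in 0.371% of all promoters and in Scg2, Ptprn2 and Unc13a. TATAAA stood in 13.6% of all promoters and in 2 of the 25 genes, at 6 to 11 in Chga, after the start, and at -120 to -115 in Rab3b. A match describes letters in a window and not a bound site.

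Mean levels ran from 0.0947 FPKM in Doc2b to 4265 FPKM in Chga, and a pair of granins stood far above the rest. Chga, chromogranin A, averaged 4265 FPKM over the 18 libraries and ranked 8th to 10th among all genes in each library. Scg2, secretogranin II, averaged 2698 FPKM and ranked 10th to 12th. Chga held 43.6% to 52.1% of the summed FPKM of the 36 genes and Scg2 held 26.8% to 33.6%, so that a sum over these genes mostly describes this pair. The other genes with a mean of at least 100 FPKM were Chgb (419 FPKM), Scg3 (313 FPKM), the granule SNARE Vamp8 (169 FPKM), Syt13 (154 FPKM), a synaptotagmin that lacks calcium binding, and the target SNARE Snap25 (119 FPKM).

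**Figure D1:**
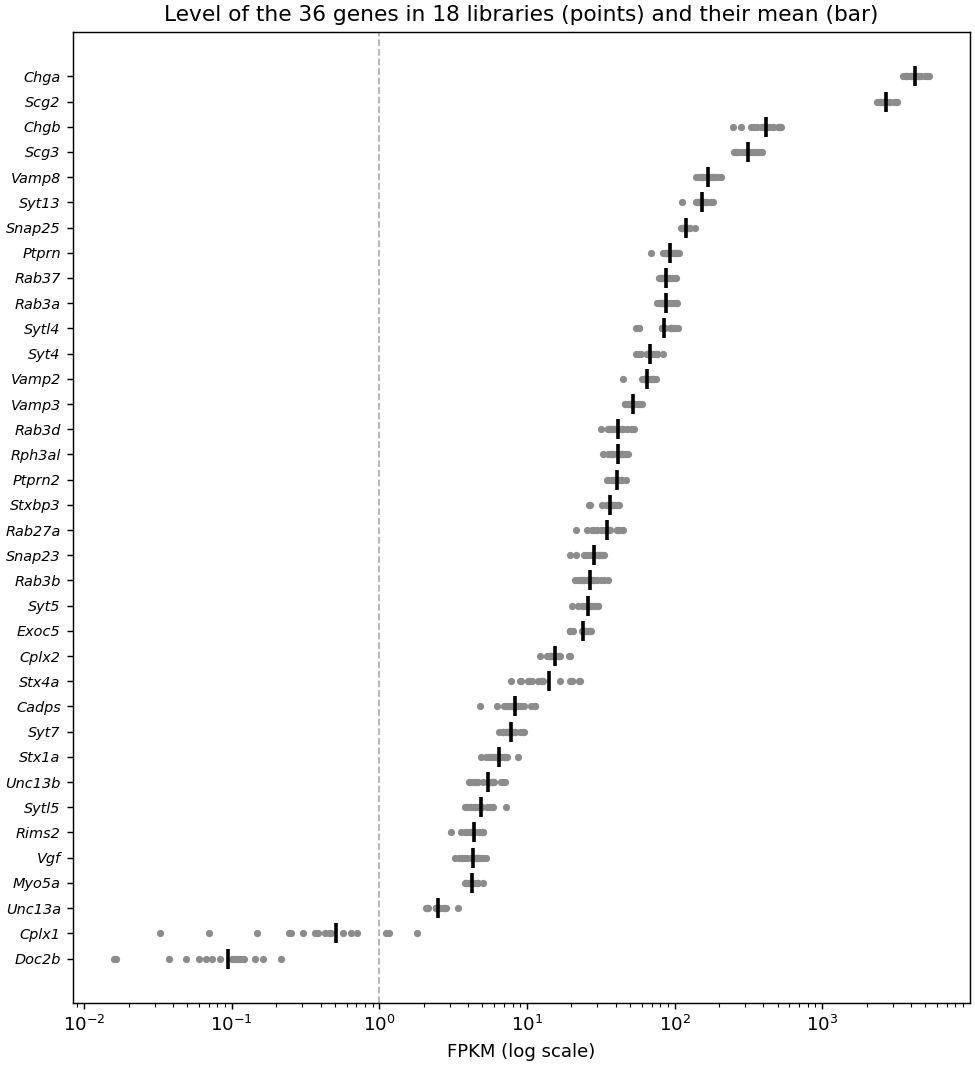
FPKM of the 36 genes on a log axis, with a grey point for each of the 18 libraries and a black bar at their mean; the dashed line marks 1 FPKM, and the single library in which Cplx1 was at 0 has no point. Chga and Scg2 stand apart at the top, at means of 4265 and 2698 FPKM, and only Cplx1 and Doc2b lie under 1 FPKM.

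Another 18 genes averaged 10 to 100 FPKM, and 9 averaged 1 to 10 FPKM. The release SNAREs of the beta cell were not at like levels: the syntaxin Stx1a averaged 6.42 FPKM, below the granule SNARE Vamp2 at 65.2 FPKM. The priming factors were scarce, with Unc13b (Munc13-2) at 5.43 FPKM, Unc13a (Munc13-1) at 2.50 FPKM and Cadps (CAPS1) at 8.35 FPKM. Doc2b, a calcium sensor, lay between 0.016 and 0.214 FPKM and was not tested. Cplx1, complexin 1, was tested only because 3 libraries from 3 groups reached 1 FPKM, and its other libraries lay between 0 and 0.710 FPKM. The other 34 genes reached 1 FPKM in all 18 libraries.

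In most of these genes the replicates lay close and the group means were within 1.5 times of each other. Beside all tested genes they were not steadier throughout. The median absolute log2 difference between genotypes on the high-fat diet was 0.173 over the 35 genes and 0.131 over all genes. Between diets in floxed islets it was 0.167 and 0.182. The median within-group coefficient of variation over the 35 tested genes was 6.42%, lowest in Snap25 (2.35%) and highest in Cplx1 (75.2%). The ratio of the highest to the lowest group mean had a median of 1.28 and was under 1.5 in 30 of 35 genes. It reached 2 in Cplx1 and in Stx4a (syntaxin 4). Rab27a, the GTPase that recruits docking effectors to granules, was the exception among abundant genes, with a within-group variation of 23.0%. Its 8-week deleted libraries had 21.5, 36.2 and 40.9 FPKM and its 8-week floxed libraries had 27.7, 41.4 and 43.8 FPKM. The 14-week chow libraries had 40.7, 25.4 and 44.6 FPKM in deleted islets and 29.7, 42.3 and 28.4 FPKM in floxed islets. Each of those 4 groups held a library under 30 FPKM and another above 40 FPKM, whereas on the high-fat diet Rab27a held between 31.6 and 36.8 FPKM in both genotypes.

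Libraries differed in how often they held an extreme. Replicate 3 of floxed islets on the high-fat diet held the lowest of the 18 values for 7 of the 36 genes, and replicate 1 of deleted islets at 8 weeks for 6 genes. In that 8-week library these were Ptprn at 69.5 FPKM, Vamp2 at 44.6 FPKM, Syt13 at 113 FPKM, Syt5 at 20.2 FPKM, Chgb at 249.6 FPKM and Rab27a at 21.5 FPKM.

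On the high-fat diet, islets without and with exon 2 of Cdh13 differed in 6 of the 35 tested genes. Sytl4 and Rab3b, which hold granules at the plasma membrane, were higher in deleted islets, at 1.60 and 1.49 times the floxed mean FPKM, as were the fusion proteins Snap23 and Stxbp3, at 1.22 and 1.21 times. Scg2 and Rab3d were lower in deleted islets, at 0.871 and 0.811 times the floxed mean. These were 4 higher and 2 lower calls at an adjusted p below 0.05 (limma on log2(FPKM + 1), Benjamini-Hochberg adjustment over all 12234 tested genes), where 4.7% of all genes were called higher and 6.02% lower. The median difference was 0.04 over the 35 genes and 0.01 over all genes on the log2 scale.

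Sytl4 (chrX:133936385-133981821, GRCm38.p6) encodes granuphilin, an effector of Rab3 and Rab27 that docks insulin granules. On the high-fat diet it had 94.7, 92.9 and 83.3 FPKM in deleted islets, against 57.7, 57.1 and 55.0 FPKM in floxed islets. The groups were well separated, and the 3 floxed high-fat values were the lowest of all 18 libraries. The log2 difference was 0.66 ± 0.07 (SE, n = 3 each, limma adjusted p = 4.10e-06).

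Rab3b (chr4:108879070-108943324) encodes a vesicle GTPase of the Rab3 family. It had 31.5, 33.4 and 35.3 FPKM in deleted islets on the high-fat diet, against 23.5, 22.5 and 21.2 FPKM in floxed islets. Here the deleted high-fat values were the highest of all 18 libraries, above 29.7 FPKM in the highest of the rest. The log2 difference was 0.55 ± 0.08 (SE, n = 3 each, limma adjusted p = 0.000108). The calls for Sytl4 and Rab3b held in all 25 alternatives, with differences of 0.63 to 0.72 for Sytl4 and 0.51 to 0.59 for Rab3b. Some of these could change little: leaving out a library outside the high-fat groups alters the estimate of spread and not the difference. Scaling by median ratios used ratios of 1.004 to 1.008.

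The other 4 calls were smaller and depended on single libraries. Snap23, a widely expressed relative of SNAP25, had 27.8, 26.5 and 25.2 FPKM in deleted islets, against 24.4, 21.5 and 19.5 FPKM in floxed islets. The groups lay close without overlap, and the log2 difference was 0.28 ± 0.08 (SE, limma adjusted p = 0.0218). Stxbp3 (Munc18c), the Sec1/Munc18 partner of syntaxin 4, had 37.5, 32.5 and 35.6 FPKM in deleted islets, against 34.3, 26.5 and 26.6 FPKM in floxed islets. Its groups overlapped, since floxed replicate 1 was above deleted replicate 2, and its log2 difference was 0.27 ± 0.09 (SE, limma adjusted p = 0.0489).

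Rab3d, another Rab3 GTPase, had 43.8, 43.8 and 38.8 FPKM in deleted islets, against 52.9, 51.8 and 51.1 FPKM in floxed islets. Every floxed value was above every deleted value, with a log2 difference of -0.30 ± 0.09 (SE, limma adjusted p = 0.0386). Scg2 had 2827, 2692 and 2719 FPKM in deleted islets, against 3189.9, 3216 and 3054 FPKM in floxed islets. It was lower in deleted islets without overlap (log2 difference -0.20 ± 0.06, limma adjusted p = 0.0300), was at -0.06 with an adjusted p of 0.549 under quantile normalization, and there lost its call, as Rab3d did (-0.27, adjusted p = 0.0718), so that neither lower call held. Chga, Syt4 and Rab3a were called there instead, at 0.40, -0.20 and -0.20. Rab3d and Stxbp3 also lost their calls with no filter on low values (adjusted p = 0.0665 and 0.0759), and Snap23 and Stxbp3 when just the high-fat libraries were fitted (0.0603 and 0.0988). Leaving out single high-fat libraries ended the call of Snap23 (deleted replicate 1 or 2, floxed replicate 2 or 3, adjusted p up to 0.129) and of Scg2 and Rab3d (any of the 6 high-fat libraries, adjusted p up to 0.105 and 0.15), and that of Stxbp3 (up to 0.194) ended in 13 of 18 leave-outs. Stxbp3 kept its call only without deleted replicate 2 or floxed replicate 1 on the high-fat diet, floxed replicate 3 at 14 weeks on chow, or replicate 1 of either genotype at 8 weeks. The count of 6 fell to 2 without deleted replicate 1 or floxed replicate 3, to 3 without replicate 2 of either genotype, and was 10 without replicate 1 of the 8-week deleted islets.

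**Figure D2:**
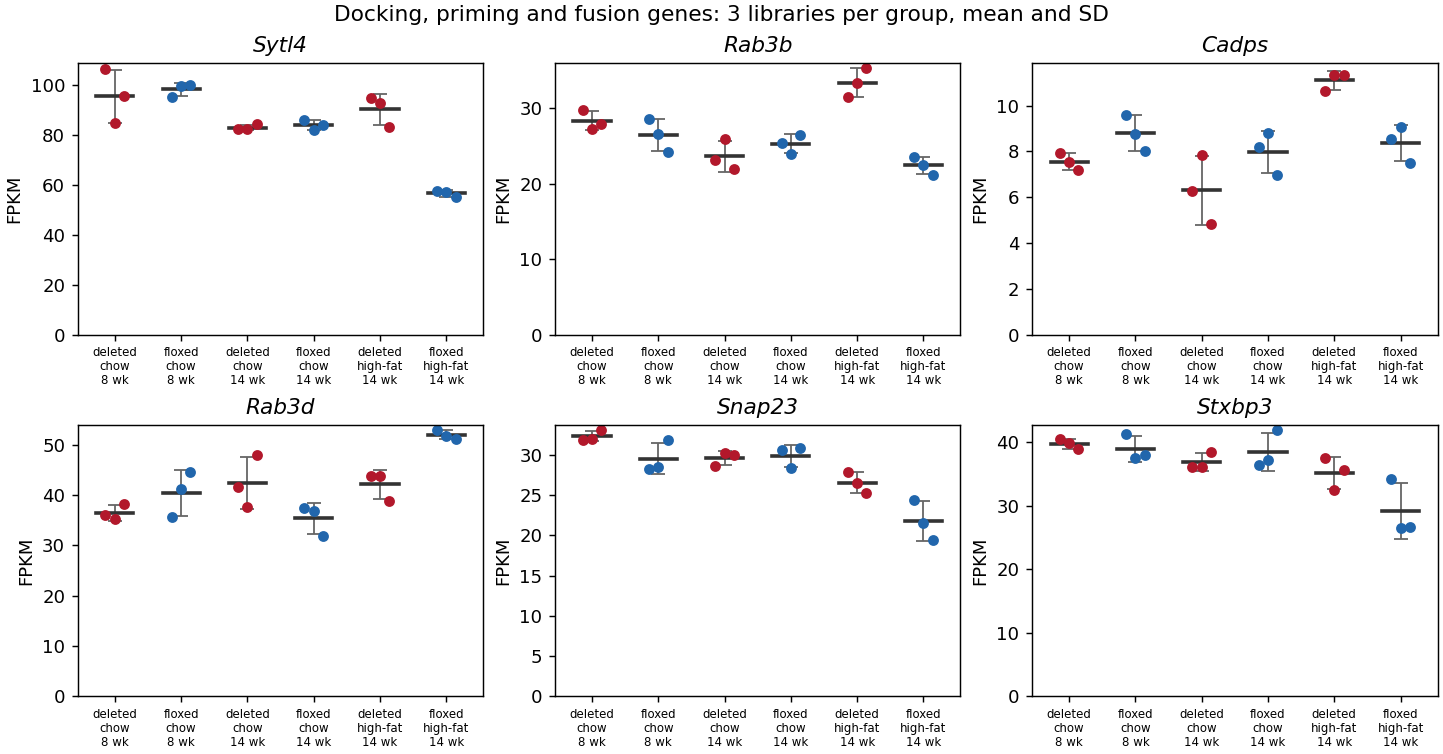
FPKM of 6 docking, priming and fusion genes in the 6 groups, with a point per library (deleted red, floxed blue), a line at the mean and bars of 1 SD (n = 3). Sytl4 is lowest in floxed islets on the high-fat diet, at 55.0 to 57.7 FPKM, and Rab3b and Cadps are highest in deleted islets on the high-fat diet.

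The remaining 29 genes did not pass the test, though 17 of the 35 (48.6%) had an unadjusted p below 0.05, against 25.7% of all genes. Because the genes were chosen with earlier results of these data known, that excess is a description and not a test. Just outside the threshold were Syt4 (log2 difference -0.22, adjusted p = 0.0536), a calcium-insensitive synaptotagmin, Cadps (0.37, adjusted p = 0.0542) and Vamp8 (-0.26, adjusted p = 0.0605). Of the other cargo genes, Chga was at 0.16 (adjusted p = 0.109), Chgb at -0.30 (0.0937), Scg3 at -0.12 (0.167) and Vgf at -0.02 (0.946). The core release SNAREs Stx1a, Vamp2 and Snap25 were at 0.03, 0.08 and -0.10, none past the threshold.

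Markers of other endocrine cells differed between the same groups. Of the alpha cell list, 4 of 6 tested genes were higher in deleted islets on the high-fat diet and 0 lower, and of the delta cell list 3 of 3 were higher, by limma. The summed alpha list was 36187 to 46625 FPKM in deleted islets, against 23403 to 28299 FPKM in floxed islets, and the delta list 2813 to 3203 FPKM against 1538 to 1697 FPKM. Of 9 beta cell markers 3 were higher, and of 6 endothelial markers 4 were lower. The part of these cell types in the results for Sytl4, Rab3b, Snap23, Stxbp3, Rab3d and Scg2 was not tested. Markers of Schwann cells and neurons, which share this machinery, summed to 55.5 to 59.9 FPKM in deleted islets and 47.3 to 52.6 FPKM in floxed islets, and their part was not tested.

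**Figure D3:**
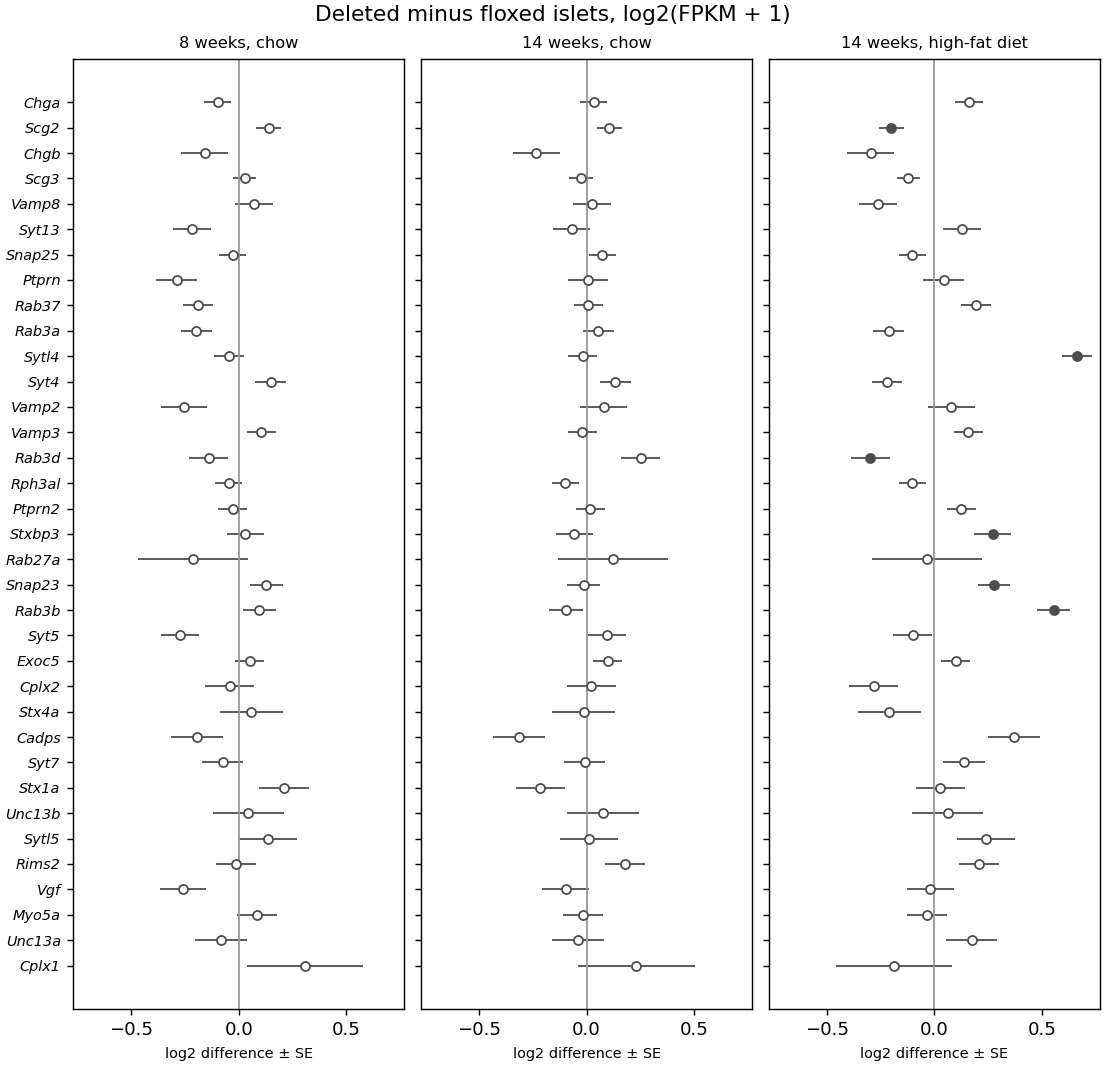
Log2 differences (deleted minus floxed, on log2(FPKM + 1)) with their SE for the 35 tested genes, ordered by level, at 8 weeks on chow, 14 weeks on chow and 14 weeks on the high-fat diet; filled points passed an adjusted p below 0.05. No point is filled on chow and 6 are filled on the high-fat diet, where Sytl4 and Rab3b lie farthest to the right and Scg2, which loses its call under quantile normalization, lies left of 0.

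On chow, none of the 35 genes passed the test between genotypes. At 8 weeks limma called 0 higher, where 0.18% of all genes were called, and 0 lower, where 0.368% were, with 8 of the 35 (22.9%) at an unadjusted p below 0.05, against 12.5% of all genes. Among those 8, Ptprn (IA-2), a granule membrane protein and autoantigen of type 1 diabetes, had 69.5, 91.8 and 92.7 FPKM in deleted islets, against 98.3, 107 and 103 FPKM in floxed islets. Its deleted values were all lower, and its log2 difference was -0.29 ± 0.09 (SE, limma adjusted p = 0.178). Syt5, Rab37, Rab3a, Syt13, Vgf and Vamp2 also had negative differences, from -0.19 to -0.27, and Scg2 was at 0.14, with adjusted p-values of 0.18 to 0.324 for these 7. Summed PP cell markers, Ppy and Pyy, lay at 42407 to 55901 FPKM in deleted islets and 11376 to 17152 FPKM in floxed islets, with 1 of the 2 called higher (Ppy was not, adjusted p = 0.071). Alpha cell markers summed to 15822 to 23871 FPKM in deleted islets and 28920 to 33296 FPKM in floxed islets, with 2 of 6 called lower, among them the glucagon gene Gcg (-0.65, adjusted p = 0.0175). The part of both cell types in these differences was not tested.

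At 14 weeks on chow limma called 0 genes higher and 0 lower, where 0.0654% and 0.049% of all genes were called, with 3 of the 35 (8.57%) at an unadjusted p below 0.05, near the 7.98% of all genes. These were Rab3d (log2 difference 0.25, adjusted p = 0.371), Cadps (-0.31, adjusted p = 0.43) and Chgb (-0.23, adjusted p = 0.618). Sytl4 had 82.4, 82.3 and 84.3 FPKM in deleted islets, against 85.9, 82.0 and 84.2 FPKM in floxed islets, and its groups overlapped. Rab3b had 23.1, 25.9 and 21.9 FPKM in deleted islets, against 25.4, 24.0 and 26.5 FPKM in floxed islets, which overlapped too.

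Over the mean of the 3 conditions, 2 of the 35 genes were called higher in deleted islets, where 1.23% of all genes were, and 0 lower, where 2.39% were; 8 of the 35 (22.9%) had an unadjusted p below 0.05, against 17.6% of all genes. The 2 were Sytl4 at 0.20 ± 0.04 and Rab3b at 0.18 ± 0.04 (log2, SE, limma adjusted p = 0.0077 and 0.0241). This mean contains the high-fat libraries in which both stood apart. Rab3b lost its call without floxed replicate 3 on the high-fat diet, floxed replicate 2 at 14 weeks on chow or floxed replicate 3 at 8 weeks (adjusted p 0.0547 to 0.0562), leaving a count of 1.

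The difference between genotypes itself differed between diets in 5 genes. Sytl4, Rab3b and Cadps had a more positive diet response in deleted than in floxed islets, and Rab3d and Scg2 a more negative one, which for Scg2 turned positive under quantile normalization. These were 3 positive and 2 negative calls of the genotype by diet interaction, where 1.42% and 2.11% of all genes were called. The 5 values stood at 0.68 ± 0.10 in Sytl4 (limma adjusted p = 0.000567), 0.65 ± 0.11 in Rab3b (0.00218), 0.68 ± 0.17 in Cadps (0.0303), -0.55 ± 0.13 in Rab3d (0.0197) and -0.30 ± 0.08 in Scg2 (0.0419), on the log2 scale with SE. The interaction uses the same high-fat libraries as the genotype comparison above.

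The 5 genes differed in which genotype moved with diet. Sytl4 in floxed islets fell to 57.7, 57.1 and 55.0 FPKM on the high-fat diet, against 85.9, 82.0 and 84.2 FPKM on chow, while in deleted islets the diets overlapped (log2 difference 0.12, adjusted p = 0.271). Rab3b moved in the other genotype: in deleted islets it had 31.5, 33.4 and 35.3 FPKM on the high-fat diet, against 23.1, 25.9 and 21.9 FPKM on chow. In floxed islets its high-fat values were all lower than on chow, at a log2 difference of -0.17 that did not pass the test (adjusted p = 0.112).

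Cadps (chr14:12372560-12823339), which primes dense-core granules for calcium-triggered fusion, moved like Rab3b. In deleted islets it had 10.6, 11.3 and 11.4 FPKM on the high-fat diet, against 6.27, 7.82 and 4.83 FPKM on chow, and in floxed islets 8.53, 9.08 and 7.51 FPKM on the high-fat diet, against 8.17, 8.78 and 6.99 FPKM on chow. The deleted groups were apart and the floxed groups overlapped. Rab3d moved in floxed islets, with 52.9, 51.8 and 51.1 FPKM on the high-fat diet, against 37.3, 36.8 and 31.9 FPKM on chow, and its deleted groups overlapped (log2 difference 0.00, adjusted p = 0.989).

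The interactions of Sytl4 and Rab3b held in every alternative, and those of the other 3 did not. That of Rab3d ended without deleted replicate 3 on either diet (adjusted p 0.0554 to 0.0559), and that of Cadps ended without deleted replicate 2 or 3 or floxed replicate 1 or 3 on the high-fat diet, or deleted replicate 1 or 3 or floxed replicate 1 or 2 on chow (up to 0.0857), and when low genes were not filtered out (0.0593). That of Scg2 ended in 13 of 18 leave-outs (up to 0.133), ended with a filter at a mean of 5 FPKM (0.052), was kept without floxed replicate 1 at 14 weeks on chow, floxed replicate 1 at 8 weeks or any 1 deleted library of 8 weeks, and was 0.19 under quantile normalization. The count of 5 fell to 2 without deleted replicate 3 on either diet, and to 3 without deleted replicate 2 or floxed replicate 3 on the high-fat diet, deleted replicate 1 on chow, or floxed replicate 2 on chow. Alpha cell markers were called in 4 of 6 and delta cell markers in 3 of 3 in the same interaction, all positive, and their part in the result was not tested.

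In deleted islets 9 of the 35 genes, 2 of them among the 5 cargo genes, passed the test between diets: 6 were higher and 3 lower than on chow at 14 weeks (limma, adjusted p below 0.05), where 9.05% and 5.91% of all genes were called, and the median difference was 0.02 over the 35 genes and 0.00 over all genes on the log2 scale. Chga and Scg3 were higher, at 1.34 and 1.36 times the chow mean, though for Chga quantile normalization gave -0.12 on the log2 scale, and Cadps and Stx4a were at 1.76 and 1.67 times. Rab3b rose to 1.41 times the chow mean and Syt7, a high-affinity calcium sensor, to 1.27 times. Syt4, the exocyst subunit Exoc5 and the Rab effector Rph3al (Noc2) fell to 0.77, 0.813 and 0.862 times the chow mean.

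In floxed islets 13 of the 35 genes passed the test, 7 higher and 6 lower, where 15% and 13.5% of all genes were called, with a median difference of 0.01 over the 35 genes and -0.01 over all genes. Scg3, Scg2 and Chga were at 1.45, 1.28 and 1.23 times the chow mean, of which Scg2 and Chga turned to -0.075 and -0.40 on the log2 scale under quantile normalization. There Chga was called lower (limma adjusted p = 0.0016) and Scg2 was not called (0.303). Stx4a rose to 1.92 times, Rab3d to 1.47 times, the granule SNARE Vamp8 to 1.25 times and Rab3a, the chief Rab3 of neurons, to 1.23 times. The falls were in Sytl4 (0.674 times), Snap23 (0.729 times), Stxbp3 (0.757 times), Exoc5 (0.81 times), Syt13 (0.836 times) and Rph3al (0.865 times). Under quantile normalization the split was 5 higher and 7 lower in floxed islets and 5 higher and 4 lower in deleted islets.

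Both genotypes shared 5 of these calls in the same direction, which is 55.6% of the 9 in deleted islets and 38.5% of the 13 in floxed islets, and no gene was called in opposite directions. Over all tested genes the shared calls were 57.9% and 30.4%. The 5 were Chga, Scg3 and Stx4a, higher, and Exoc5 and Rph3al, lower, with Chga reversed in both genotypes under quantile normalization. No interaction was called for any of the 5, with values from -0.19 in Stx4a to 0.13 in Chga.

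Among the granins, Scg3 (chr9:75643366-75685959), secretogranin III, which links chromogranin A to the granule membrane, was called in all 4 comparisons of diet and age. In deleted islets it had 363, 343 and 351 FPKM on the high-fat diet, against 253, 261 and 265 FPKM on chow, and in floxed islets 389, 383 and 377 FPKM on the high-fat diet, against 277, 259.9 and 256 FPKM on chow. The diets were far apart in both genotypes, with log2 differences of 0.44 ± 0.05 and 0.53 ± 0.05 (SE, limma adjusted p = 3.19e-05 and 1.13e-06), which held in every alternative, quantile normalization included (0.22 and 0.33).

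Chga (chr12:102554941-102565027) had 5104, 4982 and 5288 FPKM in deleted islets on the high-fat diet, against 3728, 3782 and 3926 FPKM on chow, and 4646, 4545 and 4550.4 FPKM in floxed islets on the high-fat diet, against 3994, 3662 and 3534 FPKM on chow. Each high-fat value was above every chow value of its genotype. The log2 differences were 0.43 ± 0.06 and 0.30 ± 0.06 (SE, limma adjusted p = 0.000166 and 0.00167). Under quantile normalization they were -0.12 and -0.40 (limma adjusted p = 0.383 and 0.0016), so that Chga was there called lower in floxed islets.

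Scg2 (chr1:79434366-79440026) had 2827, 2692 and 2719 FPKM in deleted islets on the high-fat diet, against 2556, 2696 and 2713 FPKM on chow, and these groups overlapped (log2 difference 0.05, adjusted p = 0.631). In floxed islets it had 3189.9, 3216 and 3054 FPKM on the high-fat diet, against 2576, 2362 and 2469 FPKM on chow, a difference of 0.35 ± 0.06 that became -0.075 under quantile normalization. Chgb, chromogranin B, and Vgf, a granin-like neuropeptide precursor, did not pass the test for diet in either genotype.

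**Figure D4:**
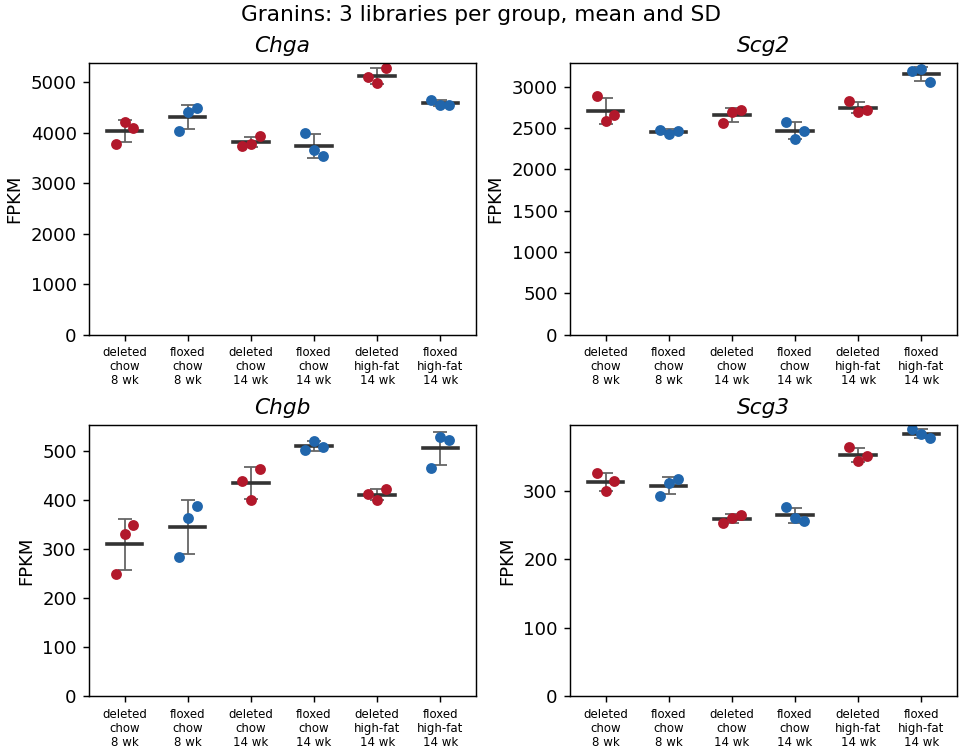
FPKM of 4 granins in the 6 groups, with a point per library (deleted red, floxed blue), a line at the mean and bars of 1 SD (n = 3). Scg3 and Chga are highest in both high-fat groups and Scg2 in the floxed high-fat group, although the diet differences of Chga and Scg2 turn round under quantile normalization; Chgb is lowest at 8 weeks.

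The sum of all FPKM was 1337800 to 1394010 in the deleted high-fat libraries, against 903346 to 1078670 in the deleted chow libraries of 14 weeks, and 1344590 to 1391940 against 941252 to 1047280 in floxed islets. The 36 genes together rose to 9762 to 10158 FPKM in deleted high-fat libraries, against 8352 to 8742 FPKM on chow, but made up 0.7% to 0.75% of the library sum, against 0.786% to 0.968% on chow. Quantile normalization gives equal ranks equal values, and Chga and Scg2 lie at ranks 8 to 12. Without this pair the sum of the other 34 genes was 2087 to 2151 FPKM on the high-fat diet, against 2002 to 2103 FPKM on chow, in deleted islets, and 2213 to 2230 FPKM against 2106 to 2129 FPKM in floxed islets.

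Stx4a (chr7:127840643-127850988), the syntaxin of the plasma membrane that pairs with Stxbp3, showed the widest diet difference in floxed islets and the second widest, after Cadps, among the calls in deleted islets. In deleted islets it had 16.9, 19.4 and 20.1 FPKM on the high-fat diet, against 12.8, 11.9 and 9.05 FPKM on chow, and in floxed islets 22.5, 22.9 and 20.1 FPKM on the high-fat diet, against 8.92, 12.8 and 12.5 FPKM on chow. The diets did not overlap in either genotype, and the log2 differences were 0.70 ± 0.15 and 0.90 ± 0.15 (SE, limma adjusted p = 0.003 and 0.000185). Both held in every alternative.

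Its Munc18 partner and another target SNARE were lower where Stx4a was higher, in floxed islets. Stxbp3 had 34.3, 26.5 and 26.6 FPKM on the high-fat diet, against 36.4, 37.2 and 41.9 FPKM on chow. Snap23 had 24.4, 21.5 and 19.5 FPKM on the high-fat diet, against 30.6, 28.3 and 30.8 FPKM on chow. Neither overlapped, with log2 differences of -0.40 ± 0.09 and -0.44 ± 0.08 (SE, limma adjusted p = 0.00205 and 0.000261). In deleted islets they were at -0.07 and -0.15 with adjusted p of 0.655 and 0.185, and the interaction was not called for either (adjusted p = 0.159 and 0.154).

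Exoc5, a subunit of the exocyst that tethers vesicles to the plasma membrane, had 23.5, 19.7 and 20.5 FPKM in deleted islets on the high-fat diet, against 26.5, 25.1 and 27.0 FPKM on chow. Floxed islets had 19.5, 20.2 and 19.5 FPKM on the high-fat diet, against 23.9, 24.5 and 24.6 FPKM on chow. The log2 differences were both -0.29 ± 0.07 (SE, limma adjusted p = 0.00607 and 0.00322) and the groups did not overlap. Rph3al was at -0.21 and -0.20. Its call ended in deleted islets when just the groups compared were fitted (adjusted p = 0.0815) or without replicate 1 or 2 on the high-fat diet or 2 or 3 on chow (adjusted p up to 0.151), and in floxed islets without replicate 1 or 3 on the high-fat diet or 1 or 2 on chow (up to 0.0594).

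Syt4 and Syt7 were called with diet in deleted islets only. Syt4 fell there by 0.37 ± 0.07 on the log2 scale, to 54.6, 59.4 and 57.7 FPKM on the high-fat diet, against 72.6, 74.7 and 75.7 FPKM on chow, and was at -0.02 in floxed islets (interaction -0.35, adjusted p = 0.0587, not called). Syt7 in deleted islets had 8.36, 9.34 and 9.56 FPKM on the high-fat diet, against 6.90, 8.09 and 6.47 FPKM on chow, apart by 0.31 ± 0.10, and lost its call without deleted replicate 2 or 3 on the high-fat diet or replicate 1 or 3 on chow (adjusted p 0.104 to 0.152) and when just the groups compared were fitted (0.0764). In floxed islets Syt7 had 8.35, 7.94 and 8.17 FPKM on the high-fat diet, against 7.16, 6.88 and 7.48 FPKM on chow. These were also higher without overlap, though not called, and no interaction was called for Syt7. Syt13 in floxed islets was at -0.26 ± 0.09 and lost its call when any 1 floxed high-fat library, or floxed replicate 1 or 2 on chow, was left out (up to 0.12), and with no filter on low values (0.0623).

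**Figure D5:**
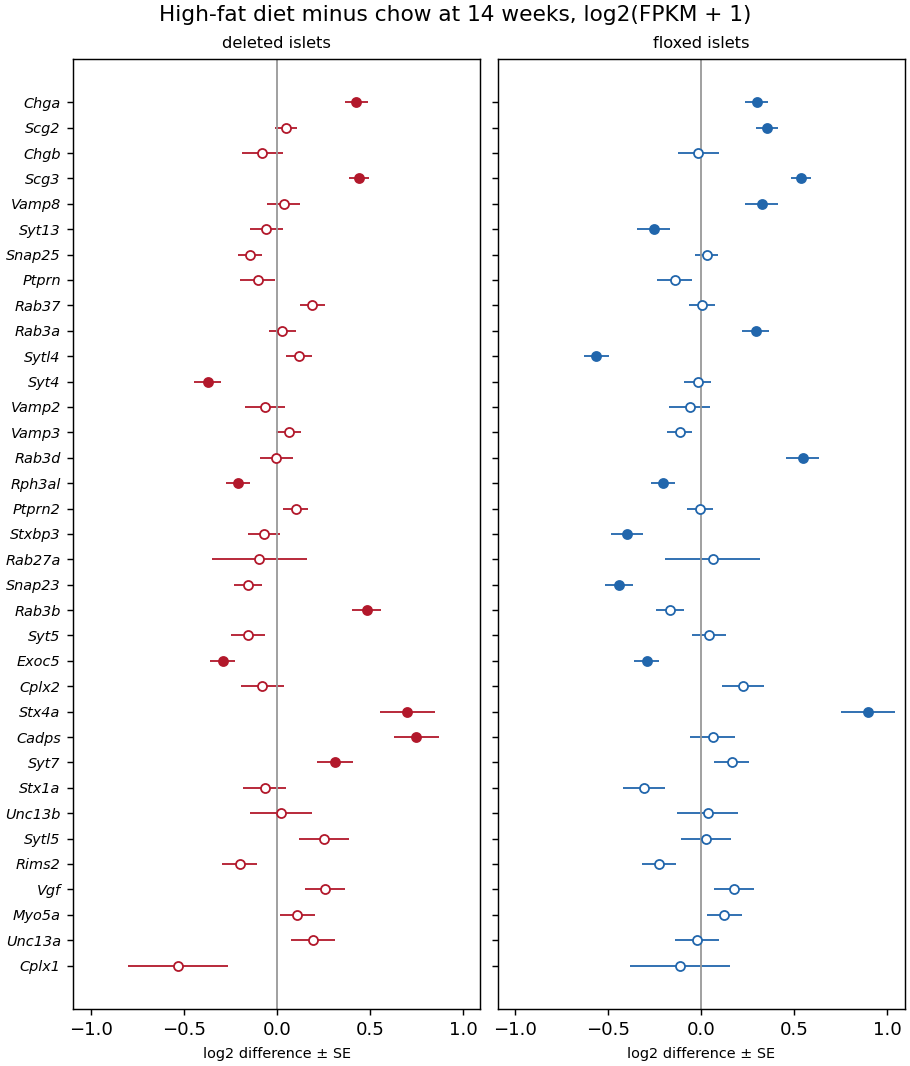
Log2 differences (high-fat diet minus chow at 14 weeks, on log2(FPKM + 1)) with their SE for the 35 tested genes, ordered by level, in deleted islets (left, red) and floxed islets (right, blue); filled points passed an adjusted p below 0.05. Scg3 and Stx4a are filled to the right of 0 in both panels and Exoc5 and Rph3al to the left in both, while Chga lies right of 0 in both and Scg2 in floxed islets, signs that turn round under quantile normalization.

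Other cells moved with diet as well. Acinar markers, from the enzyme-secreting tissue around islets, summed to 79.2 to 163 FPKM in deleted islets on the high-fat diet, against 1291 to 2366 FPKM on chow, and to 18.8 to 278 FPKM in floxed islets on the high-fat diet, against 849 to 4286 FPKM on chow. Of 9 tested acinar markers 7 were lower in deleted islets and 9 in floxed islets, and of 9 beta cell markers 8 were higher in deleted islets, and 4 higher and 1 lower in floxed islets. Alpha and delta cell markers were higher in deleted islets, in 3 of 6 and 2 of 3, and lower in floxed islets, in 2 of 6 and 3 of 3. Acinar cells store granules of their own, with Rab3d and Vamp8 on them. The part of these cell types in the diet results was not tested.

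With age on chow 2 of the 35 genes were called in deleted islets and 3 in floxed islets, and the 2 were among the 3. Chgb was higher at 14 than at 8 weeks, at 1.40 times the 8-week mean in deleted islets and 1.48 times in floxed islets, and Scg3 was lower, at 0.828 and 0.86 times. Rab3a was lower in floxed islets, at 0.809 times. These were 1 higher and 1 lower call in deleted islets, where 2.35% and 0.564% of all genes were called, and 1 higher and 2 lower in floxed islets, where 3.2% and 0.948% were (limma). In deleted islets 12 of the 35 (34.3%) had an unadjusted p below 0.05, against 15.2% of all genes. The floxed share was 8 of 35 (22.9%), against 17.7% of all genes. Under quantile normalization Chgb lost its call in both genotypes and Scg3 in floxed islets, leaving 0 higher and 1 lower in each. When just the groups compared were fitted, the calls of Chgb (adjusted p = 0.119) and Scg3 (0.138) ended in deleted islets, as did that of Scg3 in floxed islets (0.108).

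Chgb (chr2:132781642-132795079), a granin that helps form the granule core, had 439, 400.1 and 463 FPKM at 14 weeks in deleted islets, against 249.6, 330.3 and 348 FPKM at 8 weeks. In floxed islets it had 501, 519.9 and 507 FPKM at 14 weeks, against 283, 363 and 387 FPKM at 8 weeks. The ages were apart in both genotypes, with log2 differences of 0.50 ± 0.11 and 0.57 ± 0.11 (SE, limma adjusted p = 0.017 and 0.00537). In deleted islets the call ended without replicate 1 or 3 at 14 weeks or replicate 1 at 8 weeks (adjusted p 0.0721 to 0.0833).

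Scg3 had 253, 261 and 265 FPKM at 14 weeks in deleted islets, against 325, 299.8 and 314 FPKM at 8 weeks, and 277, 259.9 and 256 FPKM at 14 weeks in floxed islets, against 293, 312 and 317 FPKM at 8 weeks. Neither pair overlapped, at log2 differences of -0.27 ± 0.05 and -0.22 ± 0.05 (SE, limma adjusted p = 0.00875 and 0.0272). The call ended without replicate 1 at 14 weeks in deleted islets (adjusted p = 0.0599), and in floxed islets without replicate 2 or 3 at either age (0.0852 to 0.12). The chow libraries of 14 weeks are also the chow side of the diet comparison, in which Scg3 was higher on the high-fat diet.

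Rab3a in floxed islets had 78.6, 75.8 and 83.6 FPKM at 14 weeks, against 102, 101 and 91.0 FPKM at 8 weeks, without overlap (log2 difference -0.30 ± 0.07, limma adjusted p = 0.0196). It lost its call without floxed replicate 2 at 14 weeks or floxed replicate 1 or 2 at 8 weeks (adjusted p 0.074 to 0.113), and in deleted islets it was at -0.05 (adjusted p = 0.805). Over all 35 genes, the count of 2 in deleted islets was 0 without replicate 1 at 14 weeks, 1 without replicate 3 at 14 weeks or replicate 1 at 8 weeks, and 4 without replicate 2 at 14 weeks or replicate 3 at 8 weeks. The count of 3 in floxed islets was 1 without floxed replicate 2 at 14 weeks and 6 without deleted replicate 1 at 8 weeks. For the genotype by age interaction limma called 0 of 35 genes higher and 0 lower, where 0.049% and 0.147% of all genes were called, with 6 of 35 (17.1%) at an unadjusted p below 0.05, against 8.91% of all genes. Acinar markers summed to 1291 to 2366 FPKM at 14 weeks in deleted islets, against 36.8 to 1120.4 FPKM at 8 weeks, and to 849 to 4286 FPKM at 14 weeks in floxed islets, against 73.7 to 207 FPKM at 8 weeks. PP cell markers summed to 7726 to 22878 FPKM at 14 weeks in deleted islets, against 42407 to 55901 FPKM at 8 weeks (Ppy -2.24, adjusted p = 0.0204). Alpha cell markers were higher at 14 weeks in 3 of 6 in deleted and 1 of 6 in floxed islets. Their part in the age results was not tested.

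Of the 35 tested genes, 17 were called in none of the 10 comparisons. The share of all tested genes called in none is not given here, so this count is not read against it. They included the core release SNAREs Snap25, Vamp2 and Stx1a, both IA-2 family proteins Ptprn and Ptprn2, the priming factors Unc13a and Unc13b, the scaffold Rims2, the complexins Cplx1 and Cplx2, the granule motor Myo5a, and Rab27a, Rab37, Sytl5, Syt5, Vamp3 and Vgf. A missed threshold does not show that their levels were alike: Stx1a in floxed islets was at -0.31 with diet (adjusted p = 0.0511) and at 0.40 with age (adjusted p = 0.0552).

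A wider list of 176 other granule and exocytosis genes, of which 155 were tested, was read beside the 35. On the high-fat diet 17 of the 155 (11%) were higher and 3 (1.94%) lower in deleted islets than in floxed islets, where 4.7% and 6.02% of all genes were, with a median difference of 0.05 over the 155 and 0.01 over all genes. Among them were the propeptide convertase Pcsk2 (log2 difference 0.34, adjusted p = 0.00085), which processes proinsulin and proglucagon, the granule motor Kif1a (0.42, adjusted p = 0.000357), the priming-related C2 protein Baiap3 (0.54, adjusted p = 0.00126) and the syntaxins Stx3 (0.23, adjusted p = 0.0187) and Stx6 (0.27, adjusted p = 0.0126). Sytl1, another Rab27 effector of the Sytl4 family, went the other way, at 15.4 FPKM in deleted islets and 23.8 FPKM in floxed islets (-0.59, adjusted p = 0.0017). Its interaction with diet was -0.88 (adjusted p = 0.00388), and Pcsk2 and Kif1a had positive interactions of 0.45 and 0.36 (adjusted p = 0.00405 and 0.035). Of the 155, 2 (1.29%) had a positive and 1 (0.645%) a negative interaction call, where 1.42% and 2.11% of all genes did.

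With diet, 10 of the 155 (6.45%) were higher and 11 (7.1%) lower in deleted islets, where 9.05% and 5.91% of all genes were. In floxed islets 12 (7.74%) were higher and 30 (19.4%) lower, where 15% and 13.5% of all genes were. The exocyst subunit Exoc2 and the GTPase Ralb, which acts through the exocyst, were lower in both genotypes, at -0.23 and -0.34 in deleted islets and -0.32 and -0.39 in floxed islets. Exoc5 was at -0.29 in each. Of the 11 tested genes of the wider exocyst list, 2 were lower in deleted islets and 3 in floxed islets, and 0 were higher in either. The proton pump subunit Atp6v1a fell by 0.49 and 0.55 on the log2 scale, while the subunit Atp6v0e rose by 0.70 in floxed islets. Of 20 tested granule acidification genes, 5 were lower in each genotype, with 0 higher in deleted islets and 3 in floxed islets. Pam, the enzyme that amidates peptides in granules, was higher by 0.52 in deleted and 0.61 in floxed islets. With age on chow 10 (6.45%) were higher and 0 lower in deleted islets, where 2.35% and 0.564% of all genes were. In floxed islets 6 (3.87%) were higher and 3 (1.94%) lower, where 3.2% and 0.948% were. Cyb561, Hid1 and Sv2a were higher in both. Between genotypes on chow 1 of the 155 was called, Pcsk1n at 8 weeks (-0.40, adjusted p = 0.0459).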

How the data were processed

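Each library has a deposited file of FPKM, 1 value a gene symbol. Per the labels, total RNA was purified with miRNeasy and sequenced from SMART-Seq HT and Nextera preparations, which do not mark the strand, so a gene and an antisense partner cannot be told apart. The submitters' processing notes list TopHat2 (2.0.13), Bowtie2 (2.2.3), Cufflinks (2.2.1), SAMtools (0.1.19) and the mm10 build, with no annotation or scaling. By the median ratios of 1.004 to 1.008, the values came already near level at the median gene. No label or header names the unit, which was read from the use of Cufflinks and from the values.

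The test was limma 3.58.1 (R 4.3.3) on log2(FPKM + 1), with 6 group means over all 18 libraries, a variance trend and robust moderation; this scale understates changes of low genes. It covered the 12234 genes that reached 1 FPKM in 3 or more libraries. Benjamini-Hochberg adjustment ran over all of them in each of 10 comparisons, with calls at an adjusted p below 0.05. The model was tested on simulated data. All 36 genes were followed in all comparisons, with up to 4 called genes of smallest p from each wider list. The genes, lists and alternatives were chosen with earlier results of these data known. Coordinates are RefSeq, GRCm38.p6. Alternatives were another pseudocount (0.1), no filter, a higher filter (mean of 5 FPKM), quantile normalization, scaling by median ratios, a fit of just the groups of a comparison, the replicate number as a block, and each library left out in turn, where a group left with 2 was assumed to vary like the others. Read depth is unknown, so no counting interval is given.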

Additional observations from a re-analysis of the deposited data

Results flagged for a closer look

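The response to diet differed between genotypes, by the interaction test, in 5 of the 35 tested genes. These were 3 positive and 2 negative calls, where 1.42% and 2.11% of all genes were called. The interaction was 0.68 for Sytl4, 0.65 for Rab3b, -0.55 for Rab3d, 0.68 for Cadps and -0.30 for Scg2, on the log2 scale (limma, adjusted p = 0.000567, 0.00218, 0.0197, 0.0303 and 0.0419). In Sytl4 and Rab3d the floxed islets moved with diet, in Rab3b and Cadps the deleted islets. That of Scg2 changed sign under quantile normalization.

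In 3 of the 35 genes (8.57%), and in 339 of all 12234 tested genes (2.77%), every deleted library lay on one side of every floxed library at 8 weeks and on the other side on the high-fat diet. The difference between the log2 differences of those conditions was -0.34 in Scg2, 0.38 in Rab37 and 0.57 in Cadps, and it was not tested. The high-fat difference of Scg2, -0.20, was -0.06 (adjusted p = 0.549) under quantile normalization.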

How the results depend on the processing

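Of 40 calls in all comparisons, 20 held in every alternative, among them each call of Sytl4, the interaction, diet and high-fat genotype calls of Rab3b, and the diet calls of Scg3 and Stx4a. Not every alternative could change a result much. Median ratios were 1.004 to 1.008, and leaving out a library outside the groups compared alters the estimate of spread and not the difference. Of 998 recomputed values, 892 kept direction and call, 102 lost the call and 4 reversed, the last under quantile normalization: with diet, Chga at -0.12 in deleted islets and -0.40 in floxed islets, Scg2 at -0.075 in floxed islets, and the Scg2 interaction at 0.19. Chga in floxed islets was there called lower (limma adjusted p = 0.0016). The cause of the reversals was not tested.

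When the fit held just the groups of a comparison, the high-fat genotype comparison had 10 calls (4 higher, 6 lower) in place of 6, with Snap23 and Stxbp3 lost and Cadps, Chga, Chgb, Rab3a, Syt4 and Vamp8 gained, and age in deleted islets 0 in place of 2. Under quantile normalization age gave 1 call in deleted islets and 1 in floxed islets, in place of 2 and 3. Leaving out 1 library gave 2 to 10 calls for genotype on the high-fat diet, 1 to 3 over the mean of conditions, 0 to 4 and 1 to 6 for age in deleted and floxed islets, and 2 to 6 for the interaction with diet. Calls between genotypes on chow and for the interaction with age stayed at 0 in each alternative run. The shares of all genes called in the alternative runs are not given here, so these counts are not read against them.

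Same-numbered replicates did not vary together: over 7 comparisons and 21 pairs r was -0.16 to 0.17, and in 0 comparisons was every r over 0.1. The labels do not say what a replicate number means, and a low r cannot show that nothing was shared by number. With the replicate number as a block, 6 genes were called between genotypes on the high-fat diet, and Rab3d there (adjusted p = 0.0527) and the Scg2 interaction (adjusted p = 0.0656) lost their calls.

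Read depth is unknown, so the counting error of genes near or under 1 FPKM could not be set: Doc2b was not tested, and no difference in Cplx1 was detectable in any of the 10 comparisons.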
